A study of Mus musculus with 12 samples.

Results

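Integrins and laminins were followed here through 39 genes, out of 18194 genes measured on the arrays. Members were taken by name: every gene whose symbol in the platform annotation starts with Itga, Itgb or a laminin alpha, beta or gamma chain prefix followed by a number. Where several probe sets (groups of short probes for 1 transcript) carried the same symbol, the probe set with the highest mean over the 12 arrays stood for the gene. The members comprise 24 integrin subunits (16 alpha and 8 beta), 10 laminin chains and 5 genes that carry an integrin name without being a classical subunit. Itga11 and Itgad were not analysed here.

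The arrays measured A2C12, a lung tumour line from c-myc/c-raf double transgenic mice of C57BL/6 background, so every group carries both transgenes. Cells were sorted by the DNA dye Hoechst into a side population (SP), whose membrane pumps clear it, and the dye-retaining non-SP cells. Before sorting they had been given a monoclonal antibody to mouse EpCAM, an epithelial adhesion protein, at 100 µg/ml for 48 h, or had been left untreated, and a control antibody is not among the groups. This gave 4 groups of 3 biological replicates: SP and non-SP cells without treatment, and SP and non-SP cells with the antibody. Arrays are named by fraction, treatment and replicate number. All come from 1 cell line, and the labels do not say how the replicate cultures were kept apart.

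Integrins are paired receptors, each made of 1 alpha and 1 beta subunit, which hold cells to the extracellular matrix and pass signals in both directions across the membrane. The alpha subunit sets much of the ligand choice, and most alpha subunits pair with the beta subunits encoded by Itgb1, Itgb2 or the group that joins the alpha V subunit. Laminins are cross-shaped trimers of an alpha, a beta and a gamma chain that form the sheet of the basement membrane, and epithelial cells such as those of the lung sit on it through the laminin receptors alpha 3 beta 1, alpha 6 beta 1 and alpha 6 beta 4.

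Values are deposited log2 array signals, on which a difference of 1 is a 2-fold change, and each probe set has its own scale. Array medians ran from 5.72 to 6.06. Correlations between any pair of arrays lay between 0.975 and 0.998. SP and non-SP arrays that share a number and a treatment resembled each other more than arrays of one group did, and such a pair is called a culture here. Both arrays of anti-EpCAM culture 2 stood apart, with actin 3' minus 5' signals of 0.895 and 1.03 against at most 0.733 elsewhere, a sign of RNA quality. Epithelial markers were read at means from 5.57 (Cldn7) to 11.7 (Krt19), with Epcam at 8.11, and alveolar type II markers from 5.04 (Sftpa1) to 9.01 (Abca3), with Sftpc at 5.64. Fibroblast markers ran from 4.15 (Lum) to 12.6 (Col1a2), and leukocyte markers from 3.42 (Ptprc, of all leukocytes) over 6.76 (Cd3e, of T cells) and 7.33 (Cd68) to 9.98 (Csf1r, both of macrophages). In such bulk samples, fewer cells of a type and less RNA per cell cannot be told apart.

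The subunits of the fibronectin receptor, alpha 5 beta 1, are encoded by Itga5 and Itgb1. Their promoters are shown because they encode both chains of one receptor. A further reason was that, in the probe sets used, all 3 culture means with the antibody lay below the 3 untreated ones. The gap was small for Itgb1. Culture means overlapped in its other bright probe sets and in the other probe sets of Itga5, as given further on. The windows cover 250 bases before to 50 after the start in RefSeq, mouse build GRCm38.p6, at chr15:103366742-103367041 (minus strand) for Itga5 and at chr8:128685404-128685703 (plus strand) for Itgb1. Each is written 5' to 3' along the gene, with every GC box (GGGCGG or its reverse complement CCGCCC) in capitals.
Itga5: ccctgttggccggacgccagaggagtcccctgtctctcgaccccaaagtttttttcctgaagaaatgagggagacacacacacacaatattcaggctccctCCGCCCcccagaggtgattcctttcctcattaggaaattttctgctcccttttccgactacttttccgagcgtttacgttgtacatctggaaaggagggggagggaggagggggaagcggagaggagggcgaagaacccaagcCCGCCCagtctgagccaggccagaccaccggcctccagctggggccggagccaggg
Itgb1: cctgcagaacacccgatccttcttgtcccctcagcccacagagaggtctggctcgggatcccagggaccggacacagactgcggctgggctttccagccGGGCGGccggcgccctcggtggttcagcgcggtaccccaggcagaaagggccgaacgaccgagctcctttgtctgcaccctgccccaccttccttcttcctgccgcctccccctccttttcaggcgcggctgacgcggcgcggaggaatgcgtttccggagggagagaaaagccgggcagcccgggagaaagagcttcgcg
The Itga5 window holds 2 GC boxes and 13 CpG pairs at 58.7% GC, and the Itgb1 window holds 1 GC box and 27 CpG pairs at 67.3% GC. Of all 32851 windows listed, 35.7% hold a GC box on either strand. Of the 39 members, 26 matched the table with 29 windows, and 13 of these windows, from 12 members, hold one. The letters TATAAA or their reverse complement TTTATA occur in 13.6% of all windows and in 0 of the 29. These matches describe the sequence alone.

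Among the laminin-binding alpha subunits, Itga6 had a mean of 9.99, Itga3 of 8.33 and Itga7, which is best known from muscle, of 6.02. Itga6 read 10.22, 10.20 and 9.63 in untreated non-SP arrays, 10.22, 10.45 and 9.88 in untreated SP arrays, 9.77, 9.89 and 9.91 in treated non-SP arrays and 9.92, 9.95 and 9.85 in treated SP arrays. Itga3 read 8.61, 8.67 and 8.19 in untreated non-SP arrays, 8.58, 8.20 and 8.13 in untreated SP arrays, 8.51, 8.15 and 8.33 in treated non-SP arrays and 8.42, 7.87 and 8.37 in treated SP arrays. For both genes the 4 groups overlapped, and for Itga6 the treated arrays lay closer together than the untreated ones. The collagen-binding subunits Itga1, Itga2 and Itga10 had means of 7.05, 6.07 and 5.82.

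The 4 subunits that read the RGD motif of fibronectin, vitronectin and fibrinogen were Itgav (11.48), which partners several beta subunits, the platelet subunit Itga2b (8.55), Itga5 (7.34) and Itga8 (4.08). Itga4 and Itga9, which bind vascular and matrix ligands through another motif, had means of 4.47 and 5.85. The 4 leukocyte alpha subunits lay between 3.87 (Itgam) and 5.63 (Itgae), with Itgal at 5.05 and Itgax at 5.02.

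Of the 8 beta subunits, Itgb1, Itgb3 and Itgb5 had means of 10.99, 10.77 and 10.40. Itgb4, which pairs with the alpha 6 chain in hemidesmosomes, read 7.31, 7.95 and 6.91 in untreated non-SP arrays, 7.07, 7.73 and 6.97 in untreated SP arrays, 7.00, 7.02 and 7.58 in treated non-SP arrays and 7.01, 6.65 and 7.71 in treated SP arrays. Its highest array was non-SP untreated replicate 2 and its lowest SP anti-EpCAM replicate 2, and the groups overlapped. Itgb2, the beta chain of the leukocyte integrins, read 6.97, 7.56 and 6.98 in untreated non-SP arrays, 6.64, 7.47 and 7.18 in untreated SP arrays, 6.31, 6.61 and 7.20 in treated non-SP arrays and 6.47, 6.93 and 7.19 in treated SP arrays. Its lowest values were in anti-EpCAM culture 1, while the treated arrays numbered 3 lay inside the range of the untreated arrays. Itgb7, Itgb8 and Itgb6 had means of 7.12, 6.22 and 3.64.

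Among the laminin alpha chains, Lama4 (10.28) and Lama5 (8.19) were well above the array medians, and Lama2 (6.14), Lama3 (4.89) and Lama1 (4.55) lay near or below them. Lamb1, Lamb2 and Lamc1, which build the common trimers of most tissues, had means of 11.17, 9.44 and 10.08, and Lamc3 of 5.77. Lama3 and Lamb3 encode chains of epithelial basement membranes. Lamb3 read 5.08, 5.84 and 5.73 in untreated non-SP arrays, 5.30, 5.64 and 5.50 in untreated SP arrays, 5.92, 5.35 and 5.05 in treated non-SP arrays and 5.69, 5.15 and 5.32 in treated SP arrays. Lama3 read 5.11, 4.26 and 5.02 in untreated non-SP arrays, 5.16, 4.16 and 5.05 in untreated SP arrays, 4.58, 5.38 and 5.00 in treated non-SP arrays and 4.52, 5.27 and 5.22 in treated SP arrays. Untreated culture 2 was the lowest for Lama3 in both fractions, and the other cultures overlapped across treatments. In all, 7 of the 39 members had a mean under 5 and 32 a mean of 5 or over.

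**Figure D1:**
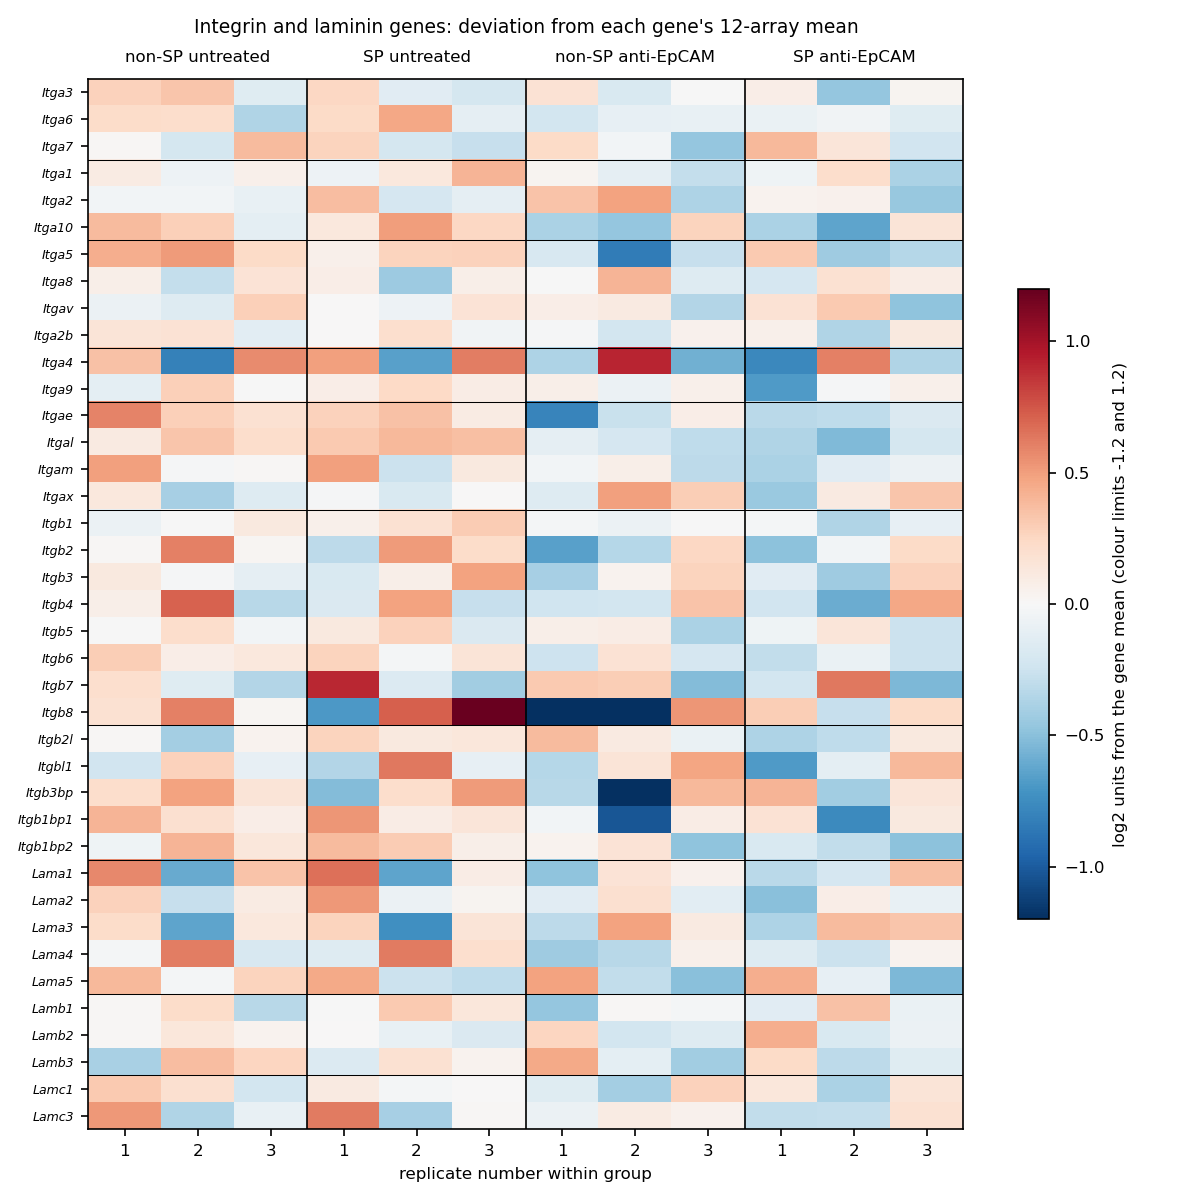
Deviation of each of the 39 genes (rows, ordered by role) from its own mean over 12 arrays, in log2 units, for the 3 replicates of each group (columns). Colours repeat between the SP and non-SP columns of one number and treatment, as for Itga4, Lama1 and Lama3, and no row separates all SP from all non-SP arrays.

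For these genes the arrays spread more between the pairs called cultures than within them. Those pairs were named from their likeness in these same arrays, so a smaller spread within them follows in part from that choice. Over the members, the median absolute distance of both fractions within a culture was 0.19 log2 units, and the median range of the 3 culture means of a treatment was 0.48. The same quantities over all 18194 genes were 0.17 and 0.42. The range exceeded the within-culture difference in 37 of the 39 members (94.9%) and in 93.8% of all genes. Itgb2l and Itgal were the exceptions among the members. The range is taken over 3 averages of array pairs and the difference between single arrays, so they are unlike measures. Itga4, the alpha 4 chain, read 4.82, 3.66 and 5.04 in untreated non-SP arrays, 4.96, 3.82 and 5.08 in untreated SP arrays, 4.10, 5.38 and 3.89 in treated non-SP arrays and 3.70, 5.07 and 4.11 in treated SP arrays, so that its arrays lay high or low by culture in both fractions.

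**Figure D2:**
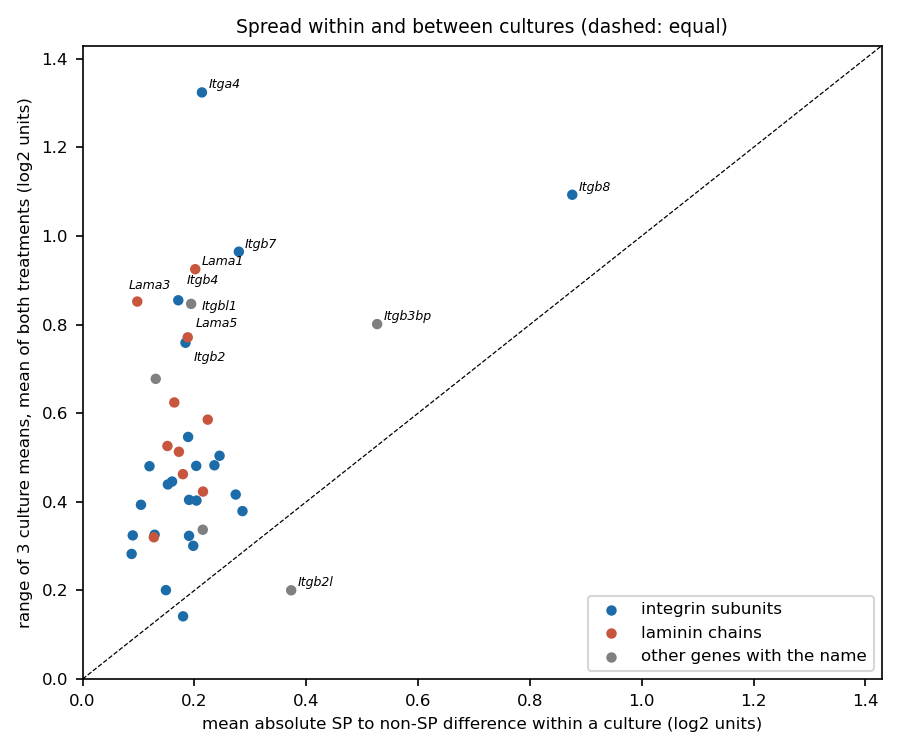
Each point is 1 of the 39 genes, with the mean absolute SP to non-SP difference within a culture on the x axis and the range of 3 culture means, averaged over both treatments, on the y axis, both in log2 units. Of the points, 37 lie above the dashed line of equal values, and Itga4, Itgb8 and Itgb7 reach the highest ranges.

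The first question was whether untreated SP cells differ from non-SP cells in these genes. The differences were small: the members' median was 0.03 log2 units (0.01 over all genes), 22 lay higher and 17 lower in SP cells, and none passed the test (limma, Benjamini-Hochberg adjusted p under 0.05, with 0.0% of all genes called). The largest moderated t values belonged to Itgb2l, which encodes a protein like the beta 2 chain, at 0.29 ± 0.19 (SE), Itgb1 at 0.17 ± 0.15 (SE) and Itgal at 0.14 ± 0.14 (SE). On the other side stood Itga3 at -0.18 ± 0.20 (SE), Itga5 at -0.19 ± 0.22 (SE) and Lamb2, a chain of mature basement membranes, at -0.16 ± 0.19 (SE). These 6, and all other members, kept their signs when arrays were centred on their medians or quantile normalised again. Centring moved the median of all genes here only from 0.010 to 0.006.

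Itgb2l read 6.22, 5.80 and 6.25 in non-SP and 6.47, 6.32 and 6.35 in SP untreated arrays. Lamb2 read 9.46, 9.58 and 9.49 in non-SP and 9.45, 9.35 and 9.27 in SP untreated arrays. These were the 2 members (5.13%) whose untreated fractions did not overlap, Itgb2l with all SP arrays higher and Lamb2 with all lower, against 2.37% of all genes in either direction. The other probe sets of Itgb2l differed by 0.12 and -0.02. Itgb1 read 10.92, 10.98 and 11.10 in non-SP and 11.05, 11.17 and 11.29 in SP untreated arrays, so the SP array was the higher in each culture while the groups overlapped. Itga5 read 7.77, 7.85 and 7.57 in non-SP and 7.40, 7.61 and 7.61 in SP untreated arrays, which overlapped. At an unadjusted p under 0.05 there were 0 members and 0.022% of all genes, and with the culture as a block again 0 members, with 305 genes in place of 4. Over all genes, intervals of 95% reached a median of 0.46 log2 units to either side (0.27 with the block), and over the members 0.48. Those of 35 of 39 members lay within a 2-fold change in either direction, against 96.5% of all genes.

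The second question was the same for cells that had received the antibody. The members' median was -0.05 (-0.03 over all genes), with 18 higher and 21 lower in SP cells and 0 past the test (0.0% of all genes). The highest t values were those of Itgb8, the subunit of the integrin alpha V beta 8 that activates latent TGF-beta, at 0.84 ± 0.51 (SE), Itga5 at 0.28 ± 0.22 (SE) and Itgb3bp, a nuclear coregulator and centromere protein named for binding the beta 3 chain, at 0.44 ± 0.37 (SE). The lowest were those of Itgb2l at -0.32 ± 0.19 (SE), Itga9 at -0.23 ± 0.20 (SE) and Itgb1bp2, the muscle protein melusin, at -0.23 ± 0.20 (SE).

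Itgb8 read 4.93, 4.71 and 6.75 in non-SP and 6.52, 5.95 and 6.46 in SP anti-EpCAM arrays. The non-SP arrays numbered 1 and 2 were lower than every SP array, and the non-SP array numbered 3 was higher than every one of them. Itgb3bp read 7.43, 6.51 and 8.15 in non-SP and 8.17, 7.35 and 7.91 in SP anti-EpCAM arrays, with the same array, non-SP replicate 2, as the lowest of both genes. Itga5 read 7.15, 6.50 and 7.06 in non-SP and 7.65, 6.92 and 6.99 in SP anti-EpCAM arrays, and Itgb1bp2 read 5.42, 5.54 and 4.90 and 5.20, 5.08 and 4.89, with overlap in both. Without both arrays of anti-EpCAM culture 2, an alternative chosen after seeing the data, the differences were 0.65 for Itgb8 and 0.25 for Itgb3bp. The part of RNA quality in them was not tested.

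Itga9 read 5.92, 5.78 and 5.90 in non-SP and 5.17, 5.83 and 5.90 in SP anti-EpCAM arrays, where SP replicate 1 alone lay apart. Groups overlapped for all 39 members, against 2.35% of all genes that did not. At an unadjusted p under 0.05 there were 0 members and 0.698% of all genes (54 higher and 73 lower, turning to 93 and 53 with centred arrays and to 77 and 94 after quantile normalisation). With the culture as a block there were again 0 members, with 1311 genes in place of 127. Without non-SP anti-EpCAM replicate 3 there were 4 members at an unadjusted p under 0.05, beside 906 genes (4.98%), and without SP anti-EpCAM replicate 3 there was 1, beside 741 genes (4.07%). The 95% intervals of 36 members lay within a 2-fold change in either direction, against 93.4% of all genes.

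Over all 6 cultures, 0 members had the SP array higher in each culture or lower in each culture, against 1.47% of all genes. Itga6 and Itgb1bp1, the latter an inhibitor of beta 1 activation, were higher in the SP array of 5 cultures. Itga2, Itga3, Itgb6, Itgb1bp2 and Itgbl1 were higher in that of 1 culture. The mean difference over both treatments was 0.11 ± 0.14 (SE) for Itga6, 0.49 ± 0.36 (SE) for Itgb8 and -0.15 ± 0.14 (SE) for Itga3. These SEs hold the spread between cultures. With the culture as a block the SE was 0.07 for Itga6 and 0.08 for Itga3. The lowest t values were those of Itga3, Itgb6 at -0.08 ± 0.11 (SE) and Itga2 at -0.10 ± 0.17 (SE). Itgb6, which encodes an epithelial partner of the alpha V chain, read 3.93, 3.72 and 3.76 in untreated non-SP arrays, 3.90, 3.62 and 3.79 in untreated SP arrays, 3.39, 3.82 and 3.44 in treated non-SP arrays and 3.35, 3.56 and 3.38 in treated SP arrays. Its arrays were all dim, and the fractions overlapped in both treatments. Itga2 read 6.44, 5.87 and 5.97 in untreated and 6.11, 6.13 and 5.62 in treated SP arrays, and its non-SP values are given with the antibody comparison. For Lamb1 the difference was 0.19 ± 0.14 (SE). It read 11.18, 11.39 and 10.83 in untreated non-SP arrays, 11.16, 11.48 and 11.30 in untreated SP arrays, 10.71, 11.19 and 11.15 in treated non-SP arrays and 11.04, 11.52 and 11.09 in treated SP arrays, and its within-culture differences were -0.02, 0.09 and 0.47 in untreated and 0.33, 0.33 and -0.05 in treated cultures. The other probe sets of Lamb1 that were well above the array medians also gave values above 0 in both treatments, at 0.21 and 0.21 for one and at 0.14 and 0.08 for the other, and the dimmest, with a mean of 4.22, gave -0.16 and -0.19. With limma 0 members and 0.0% of all genes passed, and at an unadjusted p under 0.05 there were 0 members and 0.104% of all genes. This last count of members was 1 without non-SP anti-EpCAM replicate 3, beside 194 genes, and also 1 without SP untreated replicate 1, beside 51 genes. With the culture as a block it remained 0, with 388 genes in place of 19.

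**Figure D3:**
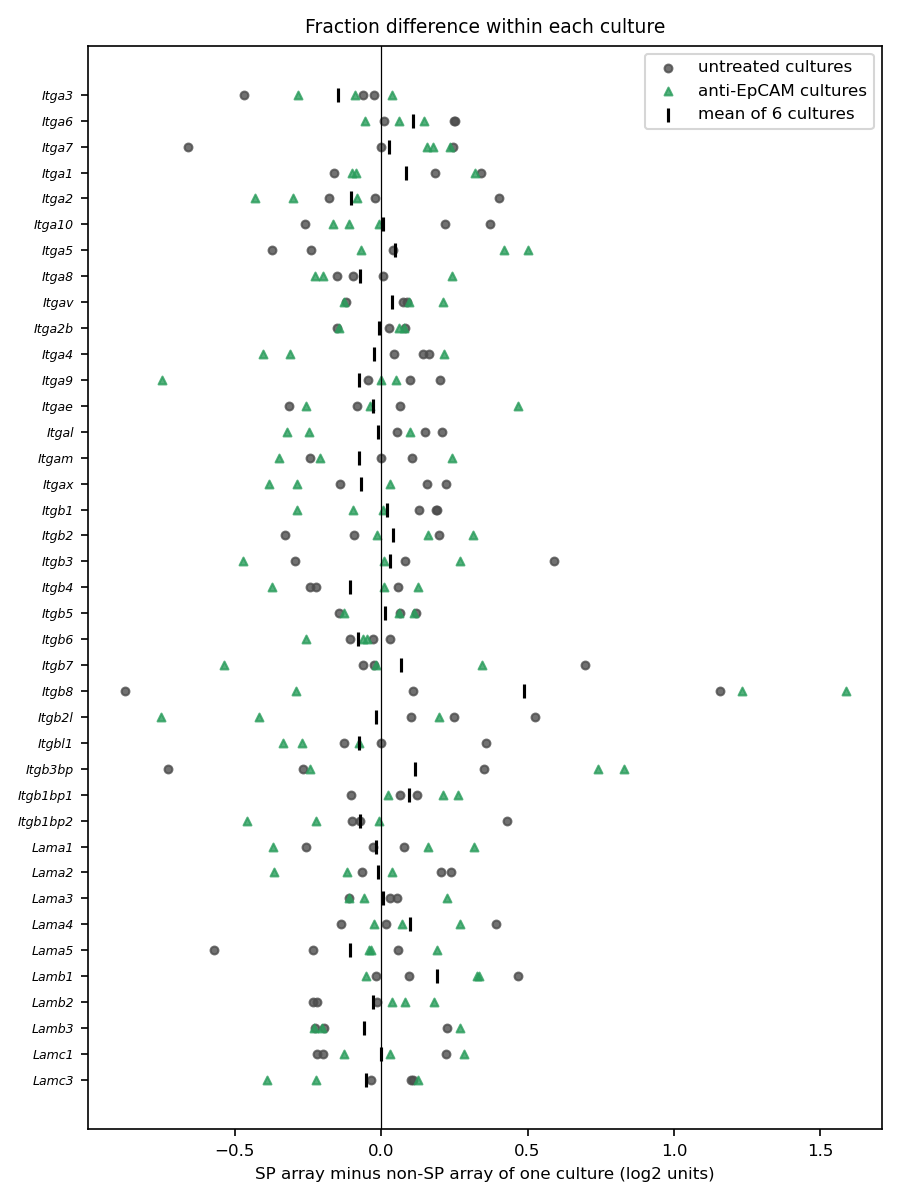
Difference between the SP and the non-SP array within each culture, in log2 units, for the 39 genes: grey circles are the 3 untreated and green triangles the 3 anti-EpCAM cultures, and the black tick is the mean of all 6. Points of 1 gene lie on both sides of 0 in every row, and the widest spread is that of Itgb8.

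The third question was what these genes did in non-SP cells given the antibody. In these arrays the median difference of all genes was -0.10, so a value near -0.10 is that of a typical gene. The members' median was -0.15, with 31 lower and 8 higher than in untreated cells, and with centred arrays it was -0.01, with 20 lower and 19 higher. None passed the test (limma, 0.0% of all genes), and the directions of members near 0 turn with the scaling.

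Itga5, the alpha chain of the fibronectin receptor, was the member with the lowest t value. It read 7.77, 7.85 and 7.57 in untreated and 7.15, 6.50 and 7.06 in anti-EpCAM non-SP arrays. The 3 treated arrays lay below the 3 untreated ones. The difference was -0.83 ± 0.22 (SE), with a 95% interval from -1.31 to -0.35, and it was -0.68 with centred arrays and -0.68 after quantile normalisation (limma unadjusted p = 0.00262, Benjamini-Hochberg adjusted p = 0.988). Its other probe sets gave -0.71, -0.14 and -0.01, so the size differed between probe sets, and the cause was not tested.

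Itgae, whose product pairs with the beta 7 chain and binds E-cadherin, read 6.23, 5.91 and 5.81 in untreated and 4.84, 5.37 and 5.71 in anti-EpCAM non-SP arrays. Its difference was -0.68 ± 0.21 (SE), at -0.54 with centred arrays, and its other probe set gave -0.32. Itgal, whose product forms the leukocyte integrin LFA-1 with the beta 2 chain, read 5.15, 5.38 and 5.25 and 4.94, 4.84 and 4.74, a difference of -0.42 ± 0.14 (SE) (-0.28 with centred arrays). All treated arrays of both genes lay below all untreated ones, while the other probe set of Itgal, with a mean of 4.18, gave 0.06. Itgb7, the partner of the Itgae product, differed by 0.13 ± 0.37 (SE), and Itgb2, the partner of the Itgal product, by -0.46 ± 0.29 (SE).

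The highest t values were those of Itgax at 0.36 ± 0.23 (SE), Itgb2l at 0.25 ± 0.19 (SE) and Itga2, the collagen receptor subunit of epithelia and platelets, at 0.20 ± 0.24 (SE). Itgax read 5.14, 4.62 and 4.86 in untreated and 4.86, 5.51 and 5.32 in anti-EpCAM non-SP arrays, and Itga2 read 6.04, 6.04 and 5.99 and 6.41, 6.56 and 5.70. Groups overlapped for each of these 3 genes. With centred arrays they stood at 0.50, 0.40 and 0.34. Itgb1 differed by -0.05 ± 0.15 (SE), above the median of all genes and at 0.09 with centred arrays. Its probe set with a mean of 10.8 gave 0.03. A further bright one, with a mean of 8.39, was lower on average with the antibody. It read 8.57, 8.29 and 8.66 in untreated and 8.73, 7.50 and 8.30 in anti-EpCAM non-SP arrays. Itgb8 lay furthest from 0, at -1.03 ± 0.51 (SE), with non-SP anti-EpCAM replicate 3 inside the untreated range.

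Itga5, Itgae and Itgal were the 3 members (7.69%) whose treated non-SP arrays all lay lower, against 6.62% of all genes, and 0 members had them all higher. The same 3 had an unadjusted p under 0.05, again 7.69%, against 2.7% of all genes with a lower value. That count was 8 without non-SP anti-EpCAM replicate 3, where the share of all genes was 5.11%, and 2 without non-SP untreated replicate 2, where it was 2.40%. Over all genes the split at that p was 94 higher and 491 lower, turning to 560 and 88 with centred arrays and to 416 and 169 after quantile normalisation. With centred arrays the members at that p were Itga5 and Itgae lower and Itgax and Itgb2l higher.

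The fourth question was the same for SP cells, where all genes had a median difference of -0.12. The members' median was -0.21, with 34 lower and 5 higher, and all 8 beta subunits were lower as deposited, from -0.35 (Itgb6) to -0.13 (Itgb5). With centred arrays the members' median was -0.02, with 20 lower and 19 higher, and that of the beta subunits -0.03, with Itgb5 at 0.07. None of the members passed the test (limma, 0.0% of all genes).

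Itgal stood out by its t value, with 5.36, 5.43 and 5.41 in untreated and 4.69, 4.52 and 4.84 in anti-EpCAM SP arrays. The difference was -0.72 ± 0.14 (SE), with a 95% interval from -1.03 to -0.40, -0.52 with centred arrays and -0.50 after quantile normalisation. Its limma adjusted p of 0.776 (Benjamini-Hochberg) equalled the lowest over all 18194 genes in this comparison. Several genes can share such a value under this adjustment. The other probe set gave -0.17. Itgb2, which encodes the partner chain, differed by -0.24 ± 0.29 (SE), and its groups overlapped.

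Itgb1bp2 read 5.76, 5.68 and 5.44 in untreated and 5.20, 5.08 and 4.89 in anti-EpCAM SP arrays, a difference of -0.57 ± 0.20 (SE). Itgae read 5.91, 5.98 and 5.73 and 5.31, 5.33 and 5.45, a difference of -0.51 ± 0.21 (SE), with -0.46 in its other probe set. For both genes the treated SP arrays lay below the untreated ones without overlap, and with centred arrays they stood at -0.38 and -0.32. Itgb1 read 11.05, 11.17 and 11.29 in untreated and 10.97, 10.63 and 10.89 in anti-EpCAM SP arrays, a difference of -0.34 ± 0.15 (SE) (-0.15 with centred arrays). The probe set of Itgb1 with a mean of 10.8 gave -0.28. The one with a mean of 8.39 was also lower on average. It read 8.38, 8.53 and 8.91 in untreated and 8.67, 7.75 and 8.38 in anti-EpCAM SP arrays. Itga10, a collagen receptor subunit of cartilage, differed by -0.58 ± 0.25 (SE), and Itga5 by -0.35 ± 0.22 (SE) with its groups overlapping.

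Laminin chains made up 2 of the 3 highest t values in SP cells: Lamb2 at 0.15 ± 0.19 (SE), Itga7 at 0.17 ± 0.24 (SE) and Lama3 at 0.22 ± 0.32 (SE). Lamb2 read 9.45, 9.35 and 9.27 in untreated and 9.88, 9.25 and 9.37 in anti-EpCAM SP arrays, and its difference was -0.04 without SP anti-EpCAM replicate 1. Lama3 turned to -0.10 without SP untreated replicate 2, the array with its lowest value, and its other probe set gave -0.28. Itga7 read 6.28, 5.81 and 5.74 in untreated and 6.41, 6.16 and 5.79 in anti-EpCAM SP arrays, which overlapped. The remaining chains ranged from -0.35 (Lama4, of vessel and mesenchymal basement membranes) to -0.03 (Lama5, of epithelial ones), with Lamc1 at -0.06.

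In SP cells 7 members (17.9%) had all treated arrays below all untreated ones, namely Itga9, Itgae, Itgal, Itgb1, Itgb1bp2, Itgb2l and Itgb6, against 8.04% of all genes, and 0 had them all above. At an unadjusted p under 0.05 there were 5 lower members (12.8%), Itgal, Itgb1bp2, Itgae, Itga10 and Itgb1, against 4.48% of all genes. That count was 3 without SP untreated replicate 3 (3.36% of all genes) and also without SP anti-EpCAM replicate 2 (4.17%), and it was 7 without SP anti-EpCAM replicate 3 (5.40%). With centred arrays it was 1, Itgal. Over all genes the split at that p was 20 higher and 815 lower, turning to 284 and 174 with centred arrays and to 168 and 233 after quantile normalisation. The comparisons in both fractions share their cultures, so the members seen in both are not independent of each other.

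Read as receptor pairs, the laminin receptor of hemidesmosomes had Itga6 at -0.16 ± 0.19 (SE) in non-SP and -0.28 ± 0.19 (SE) in SP cells and Itgb4 at -0.19 ± 0.32 (SE) and -0.13 ± 0.32 (SE). With centred arrays Itga6 stood at -0.02 and -0.09 and Itgb4 at -0.05 and 0.06, so the sign of Itgb4 turned in SP cells. Itga3, which pairs with the beta 1 chain as a laminin receptor, stood at -0.16 and -0.09 (-0.02 and 0.11 with centred arrays). Other probe sets of these alpha chains went the other way as deposited, with higher averages under the antibody in both fractions. These were the Itga3 probe sets with means of 7.54 and 6.51 and the Itga6 probe set with a mean of 7.60. Itgav and its partners Itgb3 and Itgb5, the vitronectin receptors, were close to the median of all genes in non-SP cells, at -0.08, -0.03 and -0.13, and at -0.03, -0.22 and -0.13 in SP cells. The centred values of these 3 were 0.06, 0.11 and 0.01 in non-SP and 0.16, -0.02 and 0.07 in SP cells.

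Of the 16 alpha subunits 13 were lower with the antibody in each fraction as deposited, with medians of -0.15 and -0.26 that stood at -0.01 and -0.06 with centred arrays. Itga1, a collagen receptor subunit, differed by -0.15 and -0.23, Itgam, the alpha chain of the phagocyte integrin Mac-1, by -0.26 and -0.32, and Itga4 by -0.04 and -0.33, with standard errors of 0.49 for Itga4. Of the 10 laminin chains 8 were lower in each fraction as deposited, and their medians of -0.11 and -0.09 stood at 0.03 and 0.10 with centred arrays. Lama1, an embryonic chain, differed by -0.19 and -0.09, and Lama2, the main chain of muscle, by -0.06 and -0.33. Itgbl1, a secreted protein with repeats like those of the beta chains, differed by 0.11 and -0.19.

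**Figure D4:**
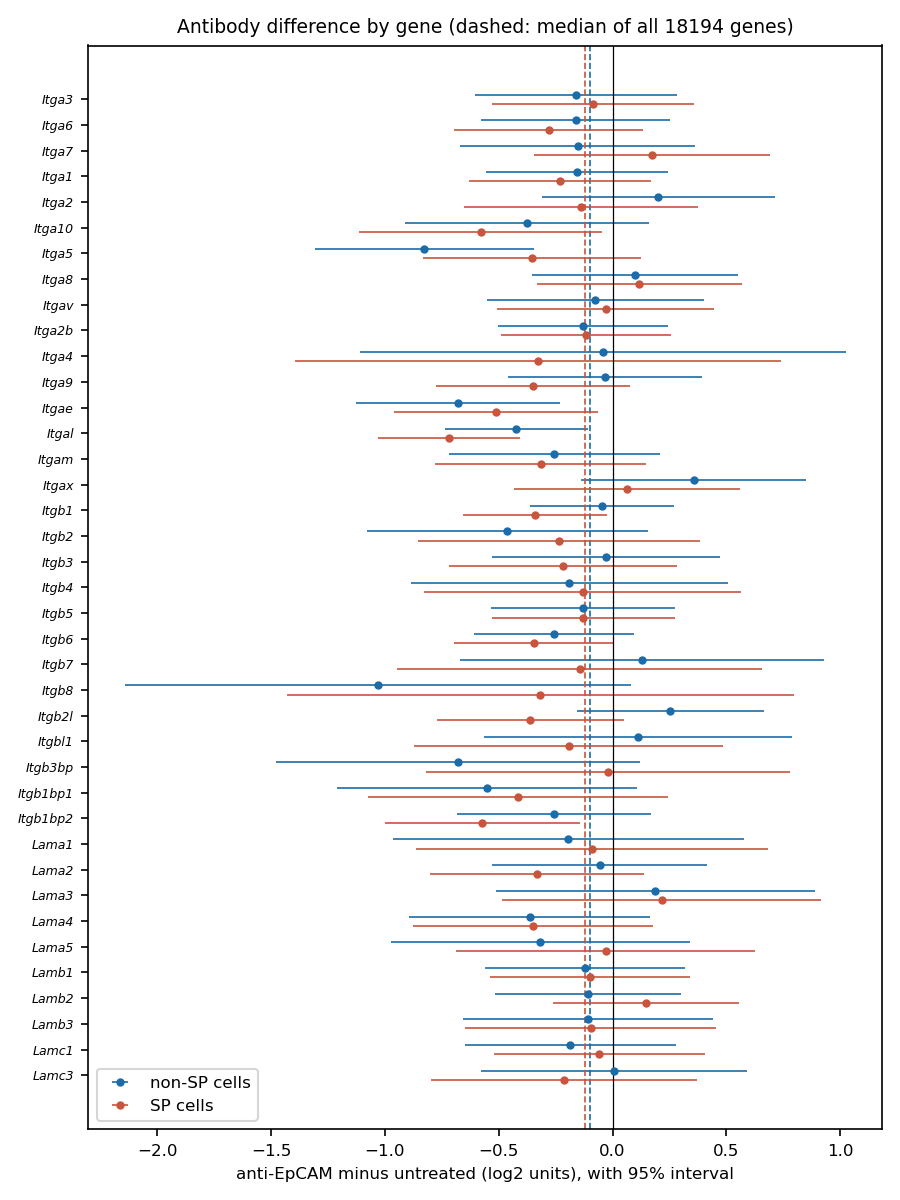
Difference between anti-EpCAM and untreated arrays, in log2 units, for the 39 genes in non-SP (blue) and SP cells (red), with 95% intervals from limma. Dashed lines mark the median of all 18194 genes in each fraction, -0.10 and -0.12, and the lowest point is Itgb8 in non-SP cells at -1.03.

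Counting each culture once, by the mean of its SP and non-SP array, left 3 untreated and 3 treated values. The members' median difference was -0.16 (-0.11 over all genes), with 33 lower and 6 higher. Itgal had culture means of 5.25, 5.41 and 5.33 untreated and 4.81, 4.68 and 4.79 with the antibody, Itgae of 6.07, 5.95 and 5.77 and 5.07, 5.35 and 5.58, and Itga5 of 7.59, 7.73 and 7.59 and 7.40, 6.71 and 7.03. Itgb1 had culture means of 10.99, 11.08 and 11.20 untreated and 10.97, 10.78 and 10.94 treated, where the highest treated mean lay just under the lowest untreated one. In its probe set with a mean of 10.8 these means were 10.70, 10.77 and 11.01 and 10.63, 10.87 and 10.58, which overlapped. In the one with a mean of 8.39 they were 8.48, 8.41 and 8.78 and 8.70, 7.63 and 8.34, which overlapped too. Culture means of the other probe sets of Itgal, Itgae and Itga5 overlapped as well. The second probe set of Itga5, with a mean of 7.16, had 7.34, 7.49 and 6.94 untreated and 7.13, 7.02 and 7.05 treated. That of Itgal had 4.26, 3.66 and 4.71 and 3.88, 4.41 and 4.18. That of Itgae had 3.97, 4.63 and 4.83 and 4.09, 3.97 and 4.20. In the probe sets used, the differences were -0.57 ± 0.15 (SE) for Itgal, -0.60 ± 0.18 (SE) for Itgae, -0.59 ± 0.20 (SE) for Itga5 and -0.19 ± 0.16 (SE) for Itgb1. With centred arrays they were -0.40, -0.43, -0.42 and -0.03. The highest were Itgax at 0.21 ± 0.21 (SE), Lama3 at 0.20 ± 0.28 (SE) and Itga8, an RGD-reading subunit, at 0.11 ± 0.20 (SE). Itgax had culture means of 5.07, 4.73 and 4.94 untreated and 4.72, 5.32 and 5.33 treated, Lama3 of 5.14, 4.21 and 5.03 and 4.55, 5.32 and 5.11, and Itga8 of 4.15, 3.72 and 4.20 and 3.97, 4.37 and 4.04. These overlapped for all 3 genes. Itga8 itself read 4.15, 3.79 and 4.24 in untreated non-SP arrays, 4.15, 3.64 and 4.15 in untreated SP arrays, 4.07, 4.49 and 3.92 in treated non-SP arrays and 3.87, 4.26 and 4.16 in treated SP arrays, all near the low end of the scale.

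Culture means did not overlap for 6 members (15.4%), all lower: Itga5, Itgae, Itgal, Itgb1, Itgb1bp1 and Itgb1bp2, against 6.95% of all genes. With limma 0 members and 0.0% of all genes passed, and at an unadjusted p under 0.05 there were 4 lower members (10.3%), Itgal, Itgae, Itga5 and Itgb1bp2, against 2.36% of all genes. With centred arrays these were 2, Itgae and Itgal, beside 86 lower of all 18194 genes. At that p all genes split into 31 higher and 430 lower. The split turned to 257 and 86 with centred arrays and to 207 and 130 after quantile normalisation. Itgb1bp1 had culture means of 9.91, 9.59 and 9.56 untreated and 9.52, 8.55 and 9.55 treated. Its difference of -0.48 was -0.15 without anti-EpCAM culture 2, the culture with the highest actin 3' to 5' signal, whose part in it was not tested.

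**Figure D5:**
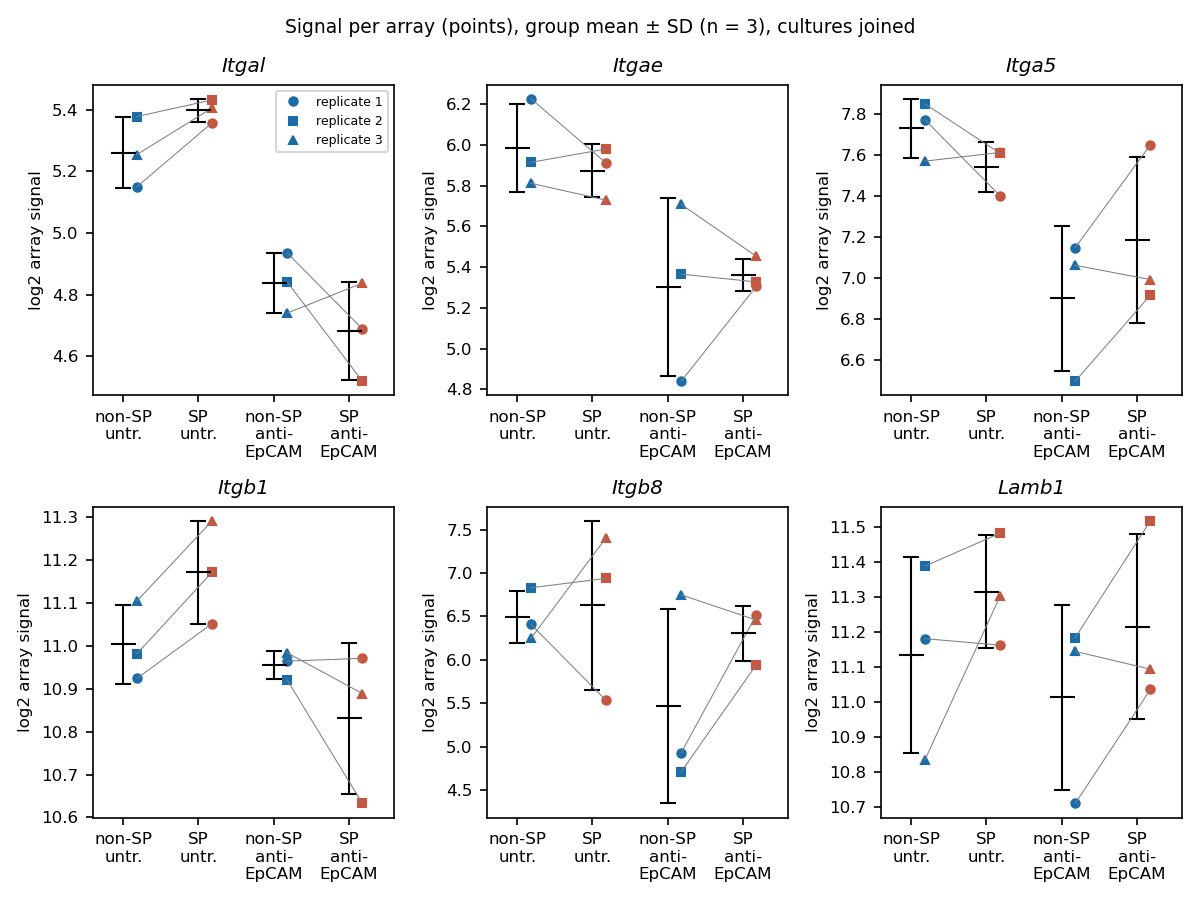
Log2 array signal of Itgal, Itgae, Itga5, Itgb1, Itgb8 and Lamb1 in each array (symbols by replicate number, blue for non-SP and red for SP), with the mean ± SD of each group (n = 3) in black and thin lines joining the arrays of one culture. The treated arrays of Itgal and Itgae lie below the untreated ones in both fractions, and Itgb8 and Lamb1 overlap throughout. Each panel has its own axis, which does not start at 0.

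The last question was whether the antibody difference was unlike in SP and non-SP cells. With limma 0 members and 0.0% of all genes passed in this interaction, and the median of the members was 0.01 (-0.03 over all genes). Itgb2l had the lowest t value, at -0.61 ± 0.27 (SE), and was the 1 member (2.56%) lower at an unadjusted p under 0.05, against 0.198% of all genes. It read 6.22, 5.80 and 6.25 in untreated non-SP arrays, 6.47, 6.32 and 6.35 in untreated SP arrays, 6.59, 6.32 and 6.13 in treated non-SP arrays and 5.84, 5.90 and 6.32 in treated SP arrays, so SP arrays were the higher ones in untreated cultures and the lower ones in treated cultures 1 and 2. Its other probe sets gave smaller differences between treatments in non-SP cells, at -0.07 and 0.05, and -0.38 and -0.10 in SP cells. Itgal and Itgb1 followed at -0.29 ± 0.20 (SE) and -0.29 ± 0.21 (SE).

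The highest t values of the interaction were those of Itga5 at 0.47 ± 0.31 (SE), Itgb3bp at 0.66 ± 0.52 (SE) and Itgb8 at 0.71 ± 0.73 (SE). In untreated arrays Itgb3bp read 7.97, 8.24 and 7.92 in non-SP and 7.24, 7.98 and 8.27 in SP cells, and Itgb8 read 6.41, 6.83 and 6.25 and 5.53, 6.94 and 7.41, so both overlapped between fractions there. With the culture as a block, Itga5 joined Itgb2l at an unadjusted p under 0.05, with 1003 genes in place of 43. The count of members at that p was 0 without any 1 of 8 arrays (all SP untreated arrays, SP anti-EpCAM replicates 1 and 2, non-SP untreated replicate 2 and non-SP anti-EpCAM replicates 1 and 2), and it was 3 when non-SP anti-EpCAM replicate 3 was left out, where all genes at that p numbered 464 (2.55%). The 95% intervals of 23 members lay within a 2-fold change in either direction, fewer than in the other comparisons, against 71.9% of all genes.

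Because Itgal, Itgae, Itgam and Itgax are known from leukocytes, the leukocyte marker list was read beside them. Of its 10 genes 9 were measured, and their mean per array ran from 6.27 to 6.50 in non-SP untreated, 6.30 to 6.49 in SP untreated, 6.10 to 6.48 in non-SP anti-EpCAM and 6.17 to 6.38 in SP anti-EpCAM arrays. Ptprc, the marker of all leukocytes, differed by 0.05 in non-SP and 0.02 in SP cells with the antibody. Its mean of 3.42 lay near the lowest signals of the arrays, which limits what it can show. Fcer1g, an antibody receptor subunit, differed by -0.29 and -0.66. The list ran from -0.32 (Lyz2) to 0.17 (Tyrobp) in non-SP and from -0.66 (Fcer1g) to 0.20 (Laptm5) in SP cells. It had 6 lower of 9 in non-SP and 5 lower of 9 in SP cells, and the part of such cells in the differences of Itgal and Itgae was not tested. The 4 platelet markers, Itga2b among them, had medians of -0.01 and -0.12 and ran from -0.64 and -0.83 (Pf4) to 0.15 and 0.01 (Gp1bb), while Itga2b itself differed by -0.13 and -0.12.

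The partners of integrins and laminins gave 0 genes past the test in any comparison. Of 22 focal adhesion genes, which link integrins to actin, 19 were lower with the antibody in non-SP and 17 in SP cells, with medians of -0.12 and -0.10, close to those of all genes and at 0.02 and 0.10 with centred arrays. Lims2, which binds the integrin-linked kinase, differed by -0.63 ± 0.22 (SE) in SP cells. Of 10 hemidesmosome and membrane partner genes 8 were lower in each fraction, with medians of -0.12 and -0.10 (0.03 and 0.09 with centred arrays). Among them Col17a1, the transmembrane collagen of hemidesmosomes, stood at -0.33 and -0.42.

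Of 22 other basement membrane genes, 19 were lower with the antibody in non-SP cells and 12 in SP cells, with medians of -0.09 and -0.03 that turned to 0.05 and 0.17 with centred arrays. Nid2, a linker between laminin and collagen IV, stood highest at 0.42 ± 0.23 (SE) and 0.32 ± 0.23 (SE). All 6 other laminin receptor genes were lower in both fractions, with medians of -0.08 and -0.13, turning to 0.06 and 0.06 with centred arrays, and Sdc1, a heparan sulfate receptor, differed by -0.40 ± 0.18 (SE) in non-SP cells. Of 18 other integrin ligands 11 were lower in non-SP and 5 in SP cells, with medians of -0.06 and 0.03 (0.08 and 0.23 with centred arrays). Vtn, the RGD ligand vitronectin, was the lowest of them at -0.50 ± 0.20 (SE) and -0.68 ± 0.20 (SE), and with centred arrays it stood at -0.36 and -0.48.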

How the data were processed

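The deposited values are log2 signals of 12 Affymetrix mouse arrays, which the authors summarised by RMA, per the submitters' processing notes. Its version was not given in the sources used here, nor any further scaling. Of 45101 probe sets 34958 had 1 symbol in the 2016 annotation, 932 had several and 9211 had none, and those with 1 symbol gave 18194 genes, unfiltered. For 7 members the probe set used has a name ending in x_at, s_at or a_at and can take up related transcripts.

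Differences were fitted in R 4.3.3 with limma 3.58.1 (lmFit, eBayes without trend, 4 group means, 8 residual degrees of freedom, or 4 for culture means), two-sided, with Benjamini-Hochberg adjustment over all genes at 0.05. The procedure was also run on simulated data in which all arrays were independent. That run does not cover arrays that pair into cultures, as these do. Tables were made in Python 3.11.15 with pandas 2.3.3 and numpy 2.4.6, and figures with matplotlib 3.10.9. Members and lists were chosen with earlier results of these data known. Array values or culture means are given for the 3 members with the highest and the 3 with the lowest moderated t in each comparison, Lama3, Lamb3 and the subunits of their receptors, and Itgal and Itgb2, and of each partner list up to 2 genes at either end may be named.

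To check the numbers, each array's deviation from its group mean was correlated across genes with that of the other fraction, giving 0.66, 0.84 and 0.55 for untreated replicates and 0.75, 0.62 and 0.56 for treated ones. Each such pair was therefore taken as a culture, which the labels do not state. Across treatments these correlations lay between -0.38 and -0.0054, so numbers do not pair treatments. Alternatives were centred arrays, a second quantile normalisation, a filter at a mean of 5, the mean of all probe sets, an intensity trend, each array left out, a block, and both arrays of anti-EpCAM culture 2 left out. The labels call the replicates biological without saying how they were kept apart, and p-values measure only the spread between these samples.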

Additional observations from a re-analysis of the deposited data

Results flagged for a closer look

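Lamb2 was set apart because its fraction difference had one sign in all untreated cultures and the other in all treated ones. The SP array was lower than the non-SP array in 3 of 3 untreated cultures and higher in 3 of 3 treated cultures. The interaction was 0.255 log2 units, with a limma adjusted p = 1.0 (Benjamini-Hochberg), so the difference between treatments did not pass the test. Such opposite signs occurred in 499 of 18194 genes (2.74%) and in 1 of the 39 members (2.56%).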

How the results depend on the processing

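The count of genes past the threshold was 0 in every comparison under each of the 19 settings run for it (the block was not run on culture means), over all genes and over the members, and no gene had an adjusted p under 0.490, a value reached with the replicate block in SP cells. With the culture as a block, the fraction comparisons and the interaction again had 0 genes past the threshold, and with the replicate number as a block across treatments, where the numbers do not pair the samples, so did the antibody comparisons (930 genes in non-SP and 1158 in SP cells at an unadjusted p under 0.05, against 585 and 835). No call was changed by the block. Of 788 alternative values for the 42 differences with the 3 highest and 3 lowest t of each comparison, 784 kept their direction and 4 did not. Many of these could not turn. The trend, the filter and the block leave a difference as it was, as does leaving out an array outside the groups compared. Of all 273 member differences, 46 changed sign with centred arrays, 11 of them in non-SP and 14 in SP cells with the antibody, and 46 did so after quantile normalisation. Lamb2 in treated against untreated SP cells ran from -0.041 to 0.271 when each array was left out in turn, and Lama3 from -0.101 to 0.458. Lama3 was -0.033 there with the mean of all its probe sets. Itga8 over culture means was -0.0127 without both arrays of anti-EpCAM culture 2, an alternative chosen after seeing the data. The cause was not tested. With 3 arrays a group, the members' 95% intervals reached from 0.312 to 1.11 log2 units to either side in the comparisons between groups and from 0.442 to 1.57 in the interaction, and probe sets near the lowest signals limit the genes with a mean under 5.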
